A study of Mus musculus with 9 samples.

Results

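Feeder fibroblasts and wild-type embryonic stem (ES) cells were compared for their mature microRNAs on a pair of two-colour arrays with swapped dyes. All probes that match a mouse microRNA and have a value on at least 1 feeder array were included, whether or not the other arrays of the study gave a value for them. These were 131 of the 206 probes on the array, of which 195 match a mouse microRNA. The feeder cells were irradiated mouse embryonic fibroblasts, and the reference was wild-type RNA of the V6.5 mouse ES line. The other arrays of the study used here set V6.5 ES cells that had lost 1 copy of DGCR8 (heterozygous, 3 arrays) and a pair of homozygous DGCR8 knockout ES lines (2 arrays each) against the same wild-type reference. All ES cells were grown on these fibroblasts and passaged off them before RNA was taken, per the series text. The feeder arrays were run to ask whether signals seen in the knockout cells could come from remaining feeder cells. No age or strain of the fibroblasts, no pooling and no separate culture for the feeder arrays is given in the sources used here.

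MicroRNAs are cut from hairpins in longer transcripts by Drosha with its partner DGCR8 and then by Dicer, and they repress messenger RNAs that pair with bases 2 to 8, the seed. Several hairpins are often made from 1 transcript, so that neighbouring microRNAs can be produced together. Mouse ES cells are known for the mir-290 and mir-302 clusters and for the mir-17 family, which favour rapid cell division. Fibroblasts are known for let-7, a family that accumulates as cells differentiate, and for miR-21, miR-199a, miR-143 and miR-145.

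Every value below is a log2 ratio of feeder RNA over wild-type ES RNA, on the scale set by control RNAs added in equal amount, so that 1 unit is a doubling. The direction is likely rather than stated, as only the naming of wild type as reference in the series text gives it. Input was a set mass of total RNA, so a microRNA's share of the RNA, the number of cells and the RNA per cell cannot be told apart. Values of different probes are ratios and do not give their abundance. The 9 arrays gave values for 84 to 133 of the 206 probes, 93 on feeder replicate 1 and 133 on feeder replicate 2. Spot intensities were not used here, and precision is limited by how few arrays there are. The labelled cell types were set beside microRNAs known for them. These were chosen with earlier results of these data known, so they give no independent check of the labels. All 13 fibroblast and mesenchyme probes were above 0 in the feeders, by 3.00 to 5.88. Of 13 ES cell probes, 8 had a feeder value and all 8 were below 0. All 6 epithelial probes were below 0. Of the microRNAs chosen for neurons, miR-124a had a mean of -5.24, and miR-132 was at 2.56 on replicate 2 only. The probes of miR-9, miR-128a, miR-137 and miR-153, chosen for neurons as well, had no feeder value. No muscle probe of 4 had a feeder value, and of 9 blood probes 3 were above 0, 1 was below and 5 had no feeder value. Neither the absence of a value nor a ratio shows how much of a microRNA either cell type held.

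The mature sequences shown first are a choice of microRNAs above 0 in the feeders, from the let-7, mesenchymal, miR-125 and miR-99 families and miR-21, to show how alike the family members are. They are RNA, 5′ to 3′, from RefSeq for GRCm38.p6, in lower case with the seed in capitals. Of the 131 probes, 101 matched a mature sequence there.
let-7a: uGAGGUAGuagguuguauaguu
let-7e: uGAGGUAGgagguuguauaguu
let-7f: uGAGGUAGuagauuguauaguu
miR-199a: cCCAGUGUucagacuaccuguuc
miR-214: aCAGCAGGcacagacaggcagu
miR-125a: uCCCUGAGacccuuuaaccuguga
miR-125b: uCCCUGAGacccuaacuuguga
miR-21: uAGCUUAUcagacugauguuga
miR-99a: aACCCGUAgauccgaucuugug
miR-99b: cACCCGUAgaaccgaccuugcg
miR-100: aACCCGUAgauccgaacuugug

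The next set is a choice from the mir-290, mir-200 and mir-17 families, all below 0 in the feeders. The seeds of miR-294 and miR-17-5p share the run AAGUGC, moved by 1 base.
miR-291-3p: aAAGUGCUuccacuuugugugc
miR-294: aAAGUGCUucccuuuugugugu
miR-295: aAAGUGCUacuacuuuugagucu
miR-293: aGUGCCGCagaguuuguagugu
miR-17-5p: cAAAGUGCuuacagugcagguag
miR-20: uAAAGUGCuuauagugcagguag
miR-106a: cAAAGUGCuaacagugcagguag
miR-93: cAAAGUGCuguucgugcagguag
miR-106b: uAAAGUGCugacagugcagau
miR-200a: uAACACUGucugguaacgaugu
miR-141: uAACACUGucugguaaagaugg

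A last set shows close relatives whose feeder ratios lay far apart, described with the families below.
miR-376a: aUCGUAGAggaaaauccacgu
miR-376b: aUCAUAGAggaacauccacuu
miR-130a: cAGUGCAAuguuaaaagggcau
miR-130b: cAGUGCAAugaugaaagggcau
miR-15a: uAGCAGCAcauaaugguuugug
miR-15b: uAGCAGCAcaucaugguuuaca

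Feeder fibroblasts and wild-type ES cells differed in most of the microRNAs that could be tested. Of the 131 probes, 88 had a mean ratio above 0 and 43 below, and only 23 lay within 1 unit of 0. A difference of more than 4 units was seen for 27 probes above 0 and 18 below. In the test across the 87 probes with enough values, 32 microRNAs were lower in the feeders (36.8% of those tested) and 32 were higher (36.8%), 64 in all (73.6%), with limma and a Benjamini-Hochberg adjusted p at or below 0.05. The remaining 23 did not pass, with ratios from -1.60 to 4.004. Of the 64 calls, 59 had both feeder arrays of that sign, and 5 (miR-323, miR-126-5p, miR-200a, miR-200b and miR-297) rested on 1 feeder array. The median was -4.21 for those lower and 2.18 for those higher.

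This test took the 2 feeder arrays as 1 value and borrowed its spread from the other groups, and it set the ratio against 0, so that variation among wild-type samples does not enter. The spread came from the heterozygous arrays and from the knockout line means, and the feeder arrays added none to it. Its p-values therefore do not reflect how far the feeder arrays lay apart, which the SDs below show. Since no separate cultures are named, part or all of the variation between arrays could be technical. The 44 probes outside the test were not a random rest. They needed a value on 2 heterozygous arrays and in both knockout lines and lacked one, and 41 of them were above 0 in the feeders, with a median of 3.87 against 0.15 for the probes tested. The tested counts therefore leave out many of the microRNAs with the highest feeder ratios. A fit that asked only for 1 residual degree of freedom covered 103 probes, with 34 lower (33.0%) and 46 higher (44.7%); of its 16 added probes, 12 were higher and 2 lower. The split also depends on the scale. With each array centred on its own median, which lowers the feeder means by 1.25, 5 microRNAs called higher turned below 0 (miR-103, miR-107, miR-337, miR-342 and miR-361), and 43 of the 87 were lower (49.4%) and 12 higher (13.8%). With each array centred on the 58 probes that had values on all 9 arrays, which raises them by 0.65, 29 were lower (33.3%) and 42 higher (48.3%).

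The feeder arrays ranked the microRNAs alike but differed in size. Both gave a value for 90 probes, with a Pearson r of 0.962 across these probes, which share the same RNA sources and are not independent. The sign was the same for 81 of them, 52 above 0 and 29 below, and opposite for 9. The median absolute difference between the arrays was 1.02 units. Of the 52 probes above 0 on both arrays, 50 were higher on replicate 1, with a median difference of 1.22. Of the 29 below 0 on both, 16 were farther from 0 on replicate 1, with a median difference of -0.13. Array and dye orientation cannot be told apart here. The 5 largest differences belonged to miR-21 (4.39), miR-290 (-4.19), miR-22 (3.19), let-7a (3.09) and miR-125b (2.96), given as replicate 1 minus replicate 2. A test on the feeder arrays alone, with 1 spread between them shared by all probes, covered 90 probes. It called 25 lower (27.8%) and 39 higher (43.3%). Its adjusted p followed the size of the mean and not the difference between a probe's own arrays. miR-21, at 5.20 and 0.81, had 0.000314, and miR-299, at 2.27 and 2.06, had 0.00869 (limma, feeder arrays alone). Calls of this test therefore do not show that the arrays of a probe agree. Of the 59 microRNAs called above that it could test, it called 46 the same way, 24 of 28 lower and 22 of 31 higher.

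The microRNAs of the mir-290 cluster, a group of hairpins on chromosome 7 that makes up a large share of the microRNAs of mouse ES cells, were the lowest as a group. All 8 probes were below 0, with a median of -7.28. In the test all 8 were lower, against 36.8% of all probes tested. For miR-293 the ratio was -8.05 on replicate 1 and -7.85 on replicate 2, a mean of -7.95 ± 0.14 (SD, n = 2 arrays), or 247-fold lower (limma, adjusted p = 6.5e-06). The arrays differed by little beside this ratio. In the knockout lines the mean of miR-293 was -7.76. Whether ratios this low reach the lower limit of the arrays, which would bound the folds given here, was not tested.

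For miR-291-3p, miR-294 and miR-295, which share the seed AAGUGCU and are known to support the short G1 phase of ES cells, the means were -7.56 ± 0.02, -7.19 ± 0.92 and -7.37 ± 0.70. The 3 were 188-fold, 146-fold and 165-fold lower. The values of miR-294 were -7.84 and -6.54, and those of miR-295 were -7.86 and -6.87, so replicate 1 was the lower array for both, by up to 1.30 units. miR-291-5p and miR-292-5p, the opposite arms of 2 hairpins, had means of -7.17 ± 0.52 and -7.52 ± 0.52, and miR-292-3p of -6.90 ± 0.87. The exception among the arrays was miR-290, at -8.01 on replicate 1 and -3.82 on replicate 2. Its mean of -5.92 ± 2.97 was still called lower (limma, adjusted p = 2.46e-05), and on each array it lay below every fibroblast microRNA described below.

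The mir-302 cluster, also known from pluripotent cells, could not be compared, as none of its 5 probes had a feeder value. Of the 5, miR-302b* and miR-302c* had no value on any array. The others did have values in ES cells, and miR-302a had a mean of -5.68 in the knockout lines.

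The microRNAs of epithelium were as low as the mir-290 cluster. ES cells are epithelial in form, and the miR-200 family represses the transcription factors Zeb1 and Zeb2 that drive the mesenchymal state, while miR-183, miR-96 and miR-182 come from 1 transcript known from sensory organs. All 6 probes were below 0, with a median of -6.87, and all 6 were lower, against 36.8% of all probes tested. miR-183 was at -6.85 and -7.33, a mean of -7.09 ± 0.34, or 136-fold lower (limma, adjusted p = 6.5e-06), and miR-182 was at -6.67 and -6.85, a mean of -6.76 ± 0.12. The 2 arrays of each agreed closely. In the knockout lines miR-183 had a mean of -7.26 and miR-182 of -7.37. Whether the feeder ratios reach the lower limit of the arrays was not tested. miR-96 of the same transcript was less far down, at -4.20 and -5.93, with a mean of -5.07 ± 1.23. miR-141, which differs from miR-200a by 2 bases, was at -4.46 and -6.72, with a mean of -5.59 ± 1.60. For miR-200a, at -7.53, and miR-200b, at -6.98, only replicate 2 gave a number. The replicate 1 entry of miR-200b was a spreadsheet error and was treated as missing. Both were called lower (limma, adjusted p = 7.83e-05 and 0.000673), each from 1 array.

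The mir-17 family clusters, which promote proliferation and survival in many cell types, were lower as well, but by less. All 10 probes were below 0, with a median of -3.45, and all 10 were lower, against 36.8% of all probes tested. The lowest, miR-20, was at -3.61 and -3.83, a mean of -3.72 ± 0.16, or 13.2-fold lower (limma, adjusted p = 0.00125). miR-17-5p was at -3.99 and -2.93, and miR-92 at -3.73 and -3.51, with means of -3.46 ± 0.75 and -3.62 ± 0.16. The means of miR-18, miR-19a and miR-106a lay between -3.70 and -3.43.

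The 3 microRNAs of the mir-106b-25 cluster, which lies in an intron of Mcm7, a gene of the replication helicase, were nearest to 0. miR-93 was at -1.81 and -2.56, miR-106b at -1.13 and -1.68, and miR-25 at -1.25 and -1.49. No array of these 3 reached the values of miR-20 or miR-92. The mean of miR-25 was -1.37 ± 0.17, or 2.58-fold lower (limma, adjusted p = 0.0143). It was not called with centring on the shared probes, nor, with an adjusted p of 0.096, on the feeder arrays alone.

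Among microRNAs known from neurons, miR-124a was at -5.33 and -5.15 and miR-7 at -3.33 and -3.55. Both were lower (limma, adjusted p = 0.00022 and 0.000298), by 37.8-fold and 10.9-fold. The neural and miR-181 list as a whole did not move in 1 direction. Of its 14 probes, 7 had a feeder value, 5 above 0 and 2 below. Of 4 tested 2 were lower and 1 was higher, against 36.8% of all probes tested in each direction. The highest was miR-218, made from introns of the Slit genes, at 3.97 on replicate 2 only and not tested. miR-150, a microRNA of mature lymphocytes, was also lower, at -4.06 and -5.22 with a mean of -4.64 ± 0.82 (limma, adjusted p = 0.000562). It was the only one of 4 blood probes with a feeder value that lay below 0. The highest of them was miR-146, which damps signalling to NF-kappaB, at 3.77 on replicate 2.

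At the other end, the let-7 family had the highest median of all lists. let-7 represses Lin28, Myc and Hmga2, and Lin28 in turn blocks let-7 maturation in ES cells. Of 11 probes, 10 had a feeder value, all 10 were above 0, and the median was 5.03. Only 4 could be tested and all 4 were higher, against 36.8% of all probes tested. let-7f, on the probe tested, was at 6.41 and 4.48, a mean of 5.44 ± 1.36, or 43.5-fold higher (limma, adjusted p = 0.000176). let-7a was at 6.77 and 3.68, a mean of 5.23 ± 2.19, or 37.5-fold higher (limma, adjusted p = 6.57e-05). Replicate 1 was the higher of the arrays for both, by far more than 1 unit. let-7b, at 5.603 and 3.54, and let-7e, at 4.59 and 2.91, were the others tested, with means of 4.57 ± 1.46 and 3.75 ± 1.18. The wider fit covered 7 probes of the family and called all 7 higher, against 44.7% of all probes in that fit. The highest of the family, a further let-7f probe at 6.63 and 5.10, was outside both, and the feeder arrays alone called it higher. All array values of the family lay above 2.9, so no let-7 value overlapped with 0.

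The list of miR-99, miR-100, miR-125 and miR-10, whose members lie beside let-7 genes or in Hox clusters, was also above 0 throughout, with 6 of 6 means above 0 and a median of 4.05. miR-125a, a repressor of Lin28, was at 4.52 and 3.67, a mean of 4.10 ± 0.60, or 17.1-fold higher (limma, adjusted p = 0.00125). Its relative miR-125b was at 5.48 and 2.52, a mean of 4.004 ± 2.09 that did not pass (limma, adjusted p = 0.0699). The knockout lines, which enter the spread of this test, were at 0.26 and -4.62 for miR-125b. It passed in the wider fit and on the feeder arrays alone. Of 4 tested, the members higher were miR-125a and miR-99a, the latter at 3.09 and 1.84 with a mean of 2.46 ± 0.88. Over all probes tested 36.8% were higher. The lowest, miR-99b, lay on both sides of 0, at 1.76 and -0.39, and did not pass (limma, adjusted p = 0.0545). Its mean was -0.56 with own-median centring, not called, and 1.34 with shared-probe centring, called higher. The highest was miR-10a of the Hoxb cluster, at 5.13 on replicate 2, with no value on any heterozygous or knockout array.

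The mesenchymal microRNAs miR-199a, miR-199a*, miR-214, miR-143 and miR-145 had the highest median next to let-7. miR-214 and the chromosome 1 hairpin of miR-199a and miR-199a* are made from the transcript Dnm3os, which is needed for skeletal development. A further hairpin with the same mature sequences lies on chromosome 9. The last pair marks smooth muscle and fibroblasts. All 7 probes were above 0, with a median of 4.98. None was in the test across 87 probes, since values were missing in knockout cells. The highest, miR-199a, was at 6.82 and 4.93, a mean of 5.88 ± 1.34, and the lowest, miR-145, was at 5.34 and 3.35, a mean of 4.34 ± 1.40. miR-214, at 5.82 and 4.13, lay between them. The feeder arrays alone could test 6 of the probes and called all 6 higher, against 43.3% of all probes in that test. Its calls follow the size of the mean, so they restate the high means and add no separate evidence. The wider fit tested 1 and called it higher, against 44.7% of all probes in that fit.

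The 8 probes of microRNAs known to be high in fibroblasts were all above 0, with a median of 3.83. All 4 tested were higher, against 36.8% of all probes tested. miR-29b, which represses collagen genes, was at 5.07 and 3.16, a mean of 4.11 ± 1.35, or 17.3-fold higher (limma, adjusted p = 0.00148). miR-31 was at 3.88 and 3.10, a mean of 3.49 ± 0.55, and miR-22 at 5.14 and 1.95, a mean of 3.55 ± 2.26. All of these arrays lay well above 0. miR-21, which is abundant in fibroblasts, had the largest disagreement between the arrays of any probe, at 5.20 and 0.81. Its mean of 3.00 ± 3.11 was called higher (limma, adjusted p = 0.00509), but the call was lost on replicate 2 alone, at 0.81, and with own-median centring, at 1.76. miR-221 and miR-222, repressors of the cell cycle inhibitor p27, were at 5.34 and 3.68 and at 4.83 and 4.06, outside the test for want of values elsewhere. miR-34a and miR-34c, which p53 induces, had a value on replicate 2 only, at 3.55 and 4.96.

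The miR-23, miR-24 and miR-27 list was above 0 for 5 of 5 probes, with a median of 2.47. Of 4 tested 3 were higher, against 36.8% of all probes tested. miR-27a, which restrains adipocyte formation, was at 3.96 and 1.60, a mean of 2.78 ± 1.68 (limma, adjusted p = 0.00148), and miR-24 at 3.43 and 0.95, a mean of 2.19 ± 1.76. Replicate 1 was again the higher array for both. miR-23a, with closer arrays at 2.77 and 2.19, did not pass (limma, adjusted p = 0.0538), and passed in the wider fit and on the feeder arrays alone. Its heterozygous arrays, which enter the spread of the test, ran from -1.33 to 1.51. None of the list was called with own-median centring, where its median was 1.22.

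The miR-30, miR-26 and miR-101 list holds microRNAs found in most tissues. Of its 5 probes, 4 had a value, all above 0, with a median of 2.22. Of 4 tested 3 were higher, against 36.8% of all probes tested. The highest, miR-26a, a repressor of Ezh2, was at 3.53 and 1.38, a mean of 2.46 ± 1.52 (limma, adjusted p = 0.00148). The lowest, miR-101a, was at 0.80 on replicate 2 only and did not pass; it was at -0.35 with own-median centring, not called, and at 1.44 with shared-probe centring, called higher. miR-181a, placed in the neural list, was at 4.19 and 2.46, a mean of 3.32 ± 1.22, or 10.0-fold higher (limma, adjusted p = 0.0017). Both of its arrays were above 2.

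In the list of miR-15, miR-16, miR-195, miR-103 and miR-107, of which the first 3 repress Bcl2 and cyclins, 6 of 7 probes had a value. Of 5 tested, 4 were higher, against 36.8% of all probes tested. They were miR-15a, miR-16, miR-103 and miR-107, with means from 0.94 to 1.72. With own-median centring none of them was called higher, miR-103 and miR-107 turned to -0.31 and -0.16, and the list's median was 0.04. miR-15b was at -0.56 and 0.16 and did not pass (limma, adjusted p = 0.674), with a mean of -0.20. It was 0.45 with shared-probe centring, not called, and -1.45 with own-median centring, called lower. The highest was miR-322, at 3.29 on replicate 2 and with no value on any heterozygous or knockout array.

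In the list of miR-130, miR-301, miR-148 and miR-152 the members diverged. miR-130b was at -2.31 and -1.80, a mean of -2.06 ± 0.36, and was lower (limma, adjusted p = 0.00144), while miR-130a and miR-301, with the same seed, had means of 0.42 and 0.15 and did not pass. The highest of this list, miR-152, was at 4.21 on replicate 2 and not tested. The median of 0.42 over these 5 probes turned to -0.83 with own-median centring. miR-320, which is made without DGCR8, was near 0 in the feeders, at 1.18 and -0.042, a mean of 0.57 ± 0.86 that did not pass (limma, adjusted p = 0.113). It was -0.68 with own-median centring, not called, and 1.22 with shared-probe centring, called higher.

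The microRNAs of the imprinted Dlk1-Gtl2 region on chromosome 12, made from the maternal copy of long transcripts, included the only group of neighbouring hairpins with means on both sides of 0. Of 16 probes in the Mirg part, 14 had a value, 10 above 0 and 4 below, and of 13 tested 3 were lower, 4 were higher and 6 did not pass. Over all probes tested 36.8% were called in each direction, and neither count of this list exceeded that share. Those higher were miR-299, miR-376a, miR-154 and miR-382. miR-299 was at 2.27 and 2.06, a mean of 2.17 ± 0.15 (limma, adjusted p = 0.00197), and miR-376a at 1.79 and 2.26, a mean of 2.03 ± 0.33 (limma, adjusted p = 0.0316). Those lower were miR-323, miR-376b and miR-409. miR-376b was at -1.22 and -1.86, a mean of -1.54 ± 0.45 (limma, adjusted p = 0.0152), and miR-323 was at -3.36 on replicate 2 only. The arrays of miR-376a and miR-376b did not overlap, although their sequences differ by 3 of 21 bases. With own-median centring 7 of this list were lower and none higher, and with shared-probe centring 1 was lower and 6 higher. Own-median centring thus turned the list's median from 0.34 to -0.96.

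Near Rtl1 and Rian in the same region, 4 of 5 probes had a value, 2 above 0 and 2 below, and 2 of 4 tested were higher, against 36.8% of all probes tested, which does not set this list apart. miR-127, which lies antisense to Rtl1 and directs its cleavage, was at 2.25 and 0.93, a mean of 1.59 ± 0.93 (limma, adjusted p = 0.00599). With own-median centring its mean was 0.34 and was not called, and on the feeder arrays alone its adjusted p was 0.0553. miR-370, at -1.60 on replicate 2 only, did not pass (limma, adjusted p = 0.0917), but was called lower with own-median centring, at -2.75, and with the 9 arrays as single values.

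Hairpins within 10 kb of each other formed 21 groups, of which 9 spanned less than 1 unit and 12 spanned more, with a median range of 1.22. By their means, miR-221 and miR-222 differed by 0.06, miR-15a and miR-16 by 0.23, miR-143 and miR-145 by 0.28 and miR-23a and miR-27a by 0.30. Single arrays could lie farther apart. miR-23a and miR-27a were at 2.77 and 3.96 on replicate 1, and at 2.19 and 1.60 on replicate 2. Among the wider groups, the 6 probes of the mir-17-92 cluster spanned 1.37 units and the 8 of the mir-290 cluster 2.03. For comparison, the SD over all 131 probes was 3.73. The 14 Mirg probes spanned 5.53, with an SD of 1.52. miR-182, miR-96 and miR-183 spanned 2.02. The widest groups after Mirg were miR-99b, let-7e and miR-125a, which spanned 3.41 with miR-99b at 0.69, and miR-99a and let-7c, which differed by 3.33 with miR-99a at 2.46. In both, the miR-99 member was the lowest on each array. miR-100, which differs from miR-99a by 1 base, was at 4.26 on replicate 2, where miR-99a was at 1.84. Such ranges between probes carry no test here, and cross-hybridisation between near-identical sequences was not tested.

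Grouping by seed sorts the same probes again, many of them as in the lists above, and is not a separate observation. Among seeds shared by several microRNAs, ACCCGUA had the widest range, from miR-99b at 0.69 to miR-100 at 4.26, the latter on replicate 2 only. The 10 probes with the let-7 seed GAGGUAG lay between 3.75 and 5.86, and the 3 with AAGUGCU between -7.56 and -7.19. The 5 with AAAGUGC, all in the mir-17 family clusters, lay between -3.72 and -1.40, and miR-106a and miR-17-5p, which differ by 1 base, were at -3.43 and -3.46. miR-103 and miR-107, also 1 base apart, were at 0.94 and 1.09. The seed AGCAGCA held miR-15a at 1.72 and miR-15b at -0.20, which differ by 4 bases. Where 2 probes match the same mature sequence, the means were 5.86 and 5.44 for let-7f, 5.30 and 5.74 for miR-199a* and 5.88 and 4.55 for miR-199a. The second miR-199a probe had a value on replicate 2 only, where the first was at 4.93. The share of G and C in the mature sequence showed no relation with the feeder mean, with r = -0.04 over the 101 probes, given as a description only.

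Against heterozygous ES cells, which were measured on arrays of their own, the picture was nearly the same. In this contrast of the same fit 31 of the 87 microRNAs were lower in the feeders (35.6%) and 29 were higher (33.3%), 60 in all (69.0%), and 83 had the same outcome as against wild type. None had the opposite call. The 4 that no longer passed were miR-409, lower against wild type only, and miR-154, miR-361 and miR-342, higher against wild type only. Heterozygous cells themselves lay within 1 unit of wild type for 110 of the 115 probes with a value, with a median of -0.01. These comparisons share the feeder arrays and the wild-type reference and are not independent of each other.

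Set beside the knockout cells, measured against the same wild-type reference, some lists had low medians in both and others a high median in the feeders only. The mir-290 cluster had a median of -7.28 in feeders and -7.52 in the knockout, and the epithelial list -6.87 and -6.06. The mir-17 family clusters were at -3.45 in feeders and -7.14 in the knockout, and miR-23, miR-24 and miR-27 at 2.47 and -5.95. The let-7 family was at 5.03 in feeders over 10 probes and -0.78 in the knockout over 7. The fibroblast list was at 3.83 and -3.21 over 8 probes each. Only 1 of the 7 mesenchymal probes had a knockout value, miR-145 at -2.01. No difference between feeders and knockout was tested here.

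Of the 131 probes, 11 had a value in the feeders and on none of the heterozygous or knockout arrays. These were miR-146, miR-98, miR-215, miR-322, miR-189, miR-10a, miR-218, miR-331, miR-374, miR-196a and miR-193. Their ratios ran from 2.02 for miR-331 to 5.13 for miR-10a, with a median of 3.42. All 11 rested on replicate 2 alone, as did 39 of the 41 probes with a value on a single feeder array, and none was tested. miR-10a and miR-196a both lie in Hox clusters. miR-98 is a let-7 family member, at 4.01, and miR-215, known from gut and liver, was the only one of 6 liver and pancreas probes with a feeder value, at 2.85. On the other side, 64 of the 195 mouse probes had no feeder value, and 24 of these had a value on another array.

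Of the 131 probes, 25 were in no list, with 17 above 0 and 8 below. Of 11 tested, 4 were higher and 1, miR-297, was lower, at -3.78 on replicate 2 only. Over all probes tested 36.8% were called in each direction, so the count higher does not set these probes apart. Those higher were miR-335, miR-210, miR-342 and miR-361, the last 2 at -0.03 and -0.08 with own-median centring. miR-335, which lies in an intron of the imprinted gene Mest, was at 2.30 and 1.38, a mean of 1.84 ± 0.65, and miR-210, which hypoxia induces, was at 1.80 and 1.23, a mean of 1.51 ± 0.41. Both arrays of each were above 1. miR-205 had the lowest value outside the lists, at -6.85 on replicate 2, and was not tested. miR-351, beside miR-322 on the X chromosome, was the highest, at 4.81 on replicate 2, also not tested.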

How the data were processed

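Per the labels' protocols, gel-cut RNA of 18 to 26 nt received the same amount of control RNAs and was then tailed, joined to capture sequences and labelled with the NCode system. The deposited values were log10 ratios (1 array, with spreadsheet error cells, counts as another unit in the deposited table), which the authors normalised on the control RNAs, per the series text. Neither the scanner nor the background correction is named in the sources used here. The log10 base was read from knockout line 1 replicate 2, where all 90 low values give back, as powers of 10, ratios with 4 decimals (4.61% would by chance). The feeder arrays showed no such rounding, so their base is assumed from the shared table, and every feeder fold depends on it. Array medians of the mouse probes were 1.34 and 1.16 (log2) in the feeders; centring beyond the control RNAs is unknown. Missing and error cells (1 in the feeders) were left out.

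Multiplying log10 ratios by 3.32 gave log2, without a pseudocount. Ratios were fitted with limma 3.58.1 in R 4.3.3 on 6 values per probe (each of 3 heterozygous arrays, 1 mean per knockout line, 1 feeder mean) and tested against 0, two-sided, adjusted by Benjamini and Hochberg over 87 probes. The script was tested on simulated data. Probes were named through the RefSeq table of GRCm38.p6; hairpins within 10 kb count as neighbours. Members and lists were chosen with earlier results of these data known. Named are the 10 highest and 10 lowest called with both feeder arrays of 1 sign, the extremes of each list, and the 5 largest differences between the feeder arrays; other list members are given beside the list's counts, and the microRNAs in no list, miR-205 and miR-351 among them, were picked after their values were seen. Alternatives changed the filter, scaling, dye term, replicate unit and arrays used.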

Additional observations from a re-analysis of the deposited data

Results flagged for a closer look

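2 probes that carry names with no mouse gene, and stayed out of every count, gave a signal on feeder replicate 2 and none on feeder replicate 1 or any heterozygous array. The miR-368 probe had a log2 ratio of 0.395 over wild-type ES cells. The miR-424 probe had 5.10. The name miR-424 is that of a human microRNA, and its mouse counterpart is miR-322, whose own probe was at 3.29 on the same array. In the knockout, the miR-368 probe was at -4.75 on line 1 replicate 2 and -3.96 on line 2 replicate 1. The miR-424 probe was at -3.97 on line 1 replicate 2. Other probes with no mouse gene were below 0 in the feeders, miR-422a at -2.25 and -2.32 and miR-198 at -3.20 on replicate 2 only. Whether any of these probes binds a mouse microRNA was not tested.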

How the results depend on the processing

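The number of microRNAs lower in the feeders stayed within 1.5 times of 32 under every alternative run, and the number higher, 32 of 87 against wild type, did not. It was 12 of 87 with each array centred on its median, 19 of 58 with values on all 9 arrays and 20 of 68 without heterozygous replicate 2; the last 2 test fewer probes. Against heterozygous cells, the 29 higher became 10 of 87, 19 of 58 and 19 of 68 under the same changes. Leaving out 1 array at a time gave 28 to 33 lower and 20 to 37 higher against wild type, and 27 to 33 lower and 19 to 35 higher against heterozygous cells. Own-median centring turned 5 microRNAs called higher below 0, and shared-probe centring turned none called lower above 0. Among the microRNAs named by the rule given above, which leaves those 5 out, the signs that turned were those of some not called. miR-99b turned to -0.56 with own-median centring and -0.39 without feeder replicate 1. miR-15b turned to 0.45 with shared-probe centring and 0.16 without feeder replicate 1. miR-101a turned to -0.35 with own-median centring. miR-320 turned to -0.68 and -0.042 under own-median centring and without feeder replicate 1. Without feeder replicate 2, miR-99b was at 1.76 and miR-320 at 1.18, both called. Of the 39 named microRNAs in the fit, 27 had no change of sign or call under any alternative that gave them a value. Same-numbered arrays of different groups had deviations that correlated by 0.04 to 0.42, so the numbers are not shown to pair them. Of 9 arrays, 8 correlated best with their own number. That count repeats the same few correlations, since deviations in a group of 2 arrays mirror each other. Replicates 1 and 2 also had opposite dye orientations in every group. With the replicate number as a block on single arrays, 33 were lower and 33 higher of 86 against wild type, and 32 and 28 against heterozygous cells. Signal over background is unknown, and 41 of 131 probes rest on 1 feeder array.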
